A study of Mus musculus with 81 samples.

Results

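Pou5f1 (which encodes OCT4), Sox2 and Nanog are the 3 transcription factor genes at the centre of the pluripotency network. They were taken by name, 3 of 49997 annotated genes, each with its gene model and 10 kb on either side. The Sox2 window ran 150 kb past the gene, because its embryonic stem (ES) cell enhancer cluster lies far downstream. In mm10, Pou5f1 lies at chr17:35506032-35510777, Sox2 at chr3:34649995-34652461 and Nanog at chr6:122707489-122714633, all on the plus strand. The Pou5f1 window also holds Tcf19, the start of Cchcr1 and the lncRNA Gm32362. The Sox2 window holds part of the lncRNA Sox2ot and the lncRNAs Gm34941, Gm3143 and Gm38509, and the Nanog window holds the pseudogene Gm10224.

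OCT4 and SOX2 bind DNA as partners at a composite element made of an octamer and a SOX motif, and NANOG acts with them at many of the same enhancers. The 3 factors also bind the control elements of their own genes. In mouse naive ES cells Pou5f1 is driven mainly by a distal enhancer and in primed, epiblast-like cells mainly by a proximal enhancer, Nanog has a strong enhancer upstream of its start, and Sox2 depends on a control region far downstream. All 3 genes are silent in fibroblasts, and forced expression of OCT4, KLF4, SOX2 and MYC (OKSM) can return fibroblasts to pluripotency.

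The study used ATAC-seq, in which a transposase cuts open chromatin, and repli-ATAC-seq, in which newly copied DNA is labelled with EdU (20 µM, 10 min) and captured before sequencing. Captured DNA was taken at once (nascent) or 2 h after the label, in medium with 10 µM thymidine (mature), and the uncaptured DNA was sequenced as bulk. The 81 samples fall into 27 groups of 3. The first course followed wild-type 129/Ola ES cells (passages 35 to 45), kept without serum with a GSK3 inhibitor, a MEK inhibitor and LIF. For the 24 h before induction an FGF receptor inhibitor replaced the MEK inhibitor. FGF2 and Activin A then turned them into epiblast-like cells (EpiLC), with nascent, mature and bulk groups at 0, 9 and 48 h. The other used mouse embryonic fibroblasts (MEF, Black6-129X1/SvJ, passages 2 to 3), heterozygous for Col1a1::tetOP-OKSM, for R26-M2rtTA and for Oct4GFP. Every MEF group used here had the OKSM cassette switched on with 2 µg/mL doxycycline, in medium with LIF and ascorbic acid, so no uninduced MEF list stands as a baseline. The MEF course has nascent, mature and bulk groups at 6, 12 and 36 h, with a separate bulk group for the nascent and the mature arm. Further MEF groups were 4 fractions, Q1 to Q4, sorted at 60 h by CellTrace Violet, a dye that dilutes as cells divide. The last pair was MEF at 14 h that had received aphidicolin (5 µg/mL, an inhibitor of DNA replication) from 4 h after induction for 10 h, and untreated MEF at the same time. The labels do not say which end of the dye scale Q1 marks.

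The cassette bears on the readout. OKSM carries the coding sequence of Pou5f1 and Sox2, but not of Nanog, and reads from the cassette align to the exons of the endogenous genes, so in MEF a peak over exonic Pou5f1 or Sox2 sequence cannot be told apart from the cassette. Exons were not read from the gene models used here, so every peak inside these 2 gene models is treated as open to cassette reads. The Oct4GFP allele may also carry Pou5f1 sequence, and the labels do not say how it was built. Reads of Pou5f1 and Nanog can further be shared with their near-identical pseudogene copies. Counts of peaks per window, their shares in nascent and mature lists, and scores summed over a gene include these peaks.

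The sequence just upstream of each start is shown because its coverage differed between ES cell and MEF lists at Pou5f1 and Nanog, though little in bulk lists at Sox2. Each line gives the 250 bases before the annotated start on the plus strand, from RefSeq (GRCm38.p6), with motif matches in capitals. All 3 members had an entry.

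Pou5f1 chr17:35505782-35506031: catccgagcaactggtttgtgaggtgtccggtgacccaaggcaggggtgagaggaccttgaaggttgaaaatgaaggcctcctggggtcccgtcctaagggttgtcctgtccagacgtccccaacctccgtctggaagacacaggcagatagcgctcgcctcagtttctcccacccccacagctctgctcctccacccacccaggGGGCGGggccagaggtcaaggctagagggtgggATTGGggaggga
Sox2 chr3:34649745-34649994: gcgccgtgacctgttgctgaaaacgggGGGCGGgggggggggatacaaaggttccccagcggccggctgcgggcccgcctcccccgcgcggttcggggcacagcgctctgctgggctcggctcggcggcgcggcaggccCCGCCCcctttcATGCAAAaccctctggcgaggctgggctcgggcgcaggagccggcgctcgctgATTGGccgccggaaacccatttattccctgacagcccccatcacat
Nanog chr6:122707239-122707488: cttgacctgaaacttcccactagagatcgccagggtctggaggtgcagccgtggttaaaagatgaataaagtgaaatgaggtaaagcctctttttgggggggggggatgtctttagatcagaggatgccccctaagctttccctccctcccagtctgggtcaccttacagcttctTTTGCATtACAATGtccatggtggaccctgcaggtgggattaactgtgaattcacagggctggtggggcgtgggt

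Searched on both strands were the octamer core ATGCAAA, the SOX motif CATTGT, the GC box GGGCGG and the CCAAT box CCAAT. The Nanog window held an octamer core at -75 to -69 and a SOX motif at -67 to -62, both on the minus strand and 1 base apart, counting the base before the start as -1. The Sox2 window held an octamer core at -99 to -93, GC boxes at -223 to -218 and -111 to -106, and a CCAAT box at -46 to -42. The Pou5f1 window held a GC box at -45 to -40 and a CCAAT box at -12 to -8, and no match to the octamer core or the SOX motif. Of all promoter windows of this length, 4.13% held the octamer core, 10.7% the SOX motif, 32.7% the GC box and 33.8% the CCAAT box. The windows were 62% GC at Pou5f1, 72% at Sox2 and 52% at Nanog, against a median of 52.4% over 32817 windows.

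Peaks covered the windows of Pou5f1 and Nanog differently in the 2 systems, while the Sox2 window differed little in bulk lists. All 250 bases at Pou5f1 lay under a peak in the 3 ES course bulk lists, and none did in any MEF list or in any nascent ES list. In mature ES lists 159 bases were covered at 48 h and 0 at 0 and 9 h. All 250 bases at Nanog were covered in ES bulk and mature lists at 0 and 9 h. In bulk at 48 h 105 bases were, in peaks from -471 to -223 and from -77 to 112 of the start, the second of which spans the octamer and SOX pair printed above. No nascent list and no MEF list covered any base of the Nanog window. The Sox2 window was covered in full in all 9 ES course lists, nascent ones included, and in 5 of the 6 MEF bulk lists. The remaining MEF bulk list, the nascent arm at 6 h, covered 184 of its bases.

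The peak lists of both courses and of the sorted fractions give 1 list per group, so they have no replicate check. The score of a peak is the peak caller's own and was used within its list, apart from a description at the end that sets shares of summed score side by side. Nascent lists held 3222 to 27693 peaks and mature lists 14281 to 94946, against 137173 to 203188 in bulk lists of the courses, so absence from a nascent or mature list was not read as closed chromatin. In bulk cell populations, fewer cells with an open site and less opening per cell cannot be told apart. As a check of identity, all 6 ES cell markers with a usable start had a peak within 1 kb of the start in ES bulk lists (61.2%, 61.1% and 61.8% of all 27025 gene starts did at 0, 9 and 48 h), and 4 to 5 did in MEF bulk lists, never Nanog. Sox2 and Pou5f1 are among those 6 markers, and in MEF the Pou5f1 peak counted there is the gene body block described next. The other marker lists were likewise cut to the genes with a usable start, which leaves out some of the chosen markers. All 5 fibroblast markers so kept had a peak in MEF bulk lists and 3 in ES bulk lists. EpiLC markers had 4 of 4 and neural markers 4 to 5 of 5 in all bulk lists, so an open start did not separate these cells. Germ cell markers had 2 of 2 in ES and 1 of 2 in MEF bulk lists, endothelial markers 1 to 2 of 2 and macrophage or blood markers 1 of 2 (Cd68). The part of other cell types in the results was not tested.

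At Pou5f1, ES cells had open chromatin across the upstream enhancers and the promoter. Reprogramming MEF instead had sharp peaks inside the gene, with at most a small peak at the distal enhancer. In 0 h ES cells 1 continuous peak ran from -2341 to 176 bp of the start, over the distal enhancer, the proximal enhancer and the promoter, with a score of 4601, in the top 3.42% of that list. At 9 h the same stretch was listed as 2 peaks, -2368 to -504 (score 2634) and -325 to 224 (score 557). At 48 h it was listed as 3 peaks, over the distal enhancer (-2157 to -1727, score 2218), the proximal enhancer (-1448 to -681, score 1676) and the promoter (-350 to 240, score 781). The stretch was thus listed in more and narrower peaks at the later times, with a peak over both enhancers at each time. Bases under peaks at the locus numbered 7216 at 0 h, 6096 at 9 h and 4690 at 48 h, in 7, 10 and 12 peaks.

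No MEF list of any kind had a peak at the Pou5f1 promoter or proximal enhancer. The distal enhancer had no peak in MEF bulk at 6 h. At 12 h it was listed with scores of 70 (nascent arm) and 132 (mature arm), and at 36 h with 52 and 199. In the nascent arm these stood near the bottom of their lists (97.4% and 98.9% of the way down by score). The mature arm scores were below the medians of their lists (596 at 12 h and 464 at 36 h). In the aphidicolin experiment at 14 h, 2 of 3 aphidicolin lists and 2 of 3 untreated lists had a peak there. Within the gene, every MEF bulk list had a block from about 69 to 453 bp past the start. Its scores were 2870, 4778 and 4252 at 6, 12 and 36 h in the nascent arm and 3912, 3966 and 4154 in the mature arm. By score it stood in the top 10.3%, 7.52% and 5.45% of its list at 6, 12 and 36 h in the nascent arm and in the top 10.2%, 8.14% and 5.39% in the mature arm.

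The edges of that first block varied by only a few base pairs between lists. Over the 6 MEF bulk lists its start ranged over 1 bp (chr17:35506101 to 35506102) and its end over 2 bp (35506483 to 35506485). Over the 6 lists of the aphidicolin experiment the ranges were 1 and 4 bp. The Nanog upstream enhancer, which is in no cassette, had ranges of 186 and 220 bp over the same 6 MEF bulk lists, and the Sox2 94 kb downstream site 169 and 116 bp. The Tcf19-Cchcr1 start site had 109 and 5 bp, and the Nanog far downstream site, also in no cassette, 24 and 30 bp. A narrow range was thus not limited to the first block. In the cassette genes, the later Pou5f1 block had 297 and 311 bp and the Sox2 gene body block 725 and 32 bp, both described below. Fixed edges were therefore not common to the blocks in cassette genes. The share of the first block's reads that came from the cassette was not tested.

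The later gene body block (3079 to 4113 bp past the start at 6 h, nascent arm) had a peak in all 6 MEF bulk lists, and a last block about 4 kb past the start was listed apart or joined to it in 4 of them. ES cells also had a peak in the later part of the gene, narrower at 0 h (3315 to 3848, score 2015), with scores of 2018 at 9 h and 386 at 48 h. Downstream, the Tcf19-Cchcr1 start site, which covers the adjacent, divergent starts of these 2 neighbours, had a peak in every bulk list of either system. A site near the 3′ end of Tcf19 had a peak in 5 of 6 MEF bulk lists and in no ES list. The adjoining site further inside Tcf19 went the other way, with a peak in all 3 ES bulk lists (scores 273 to 666) and all 3 mature ES lists, and in no MEF list.

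**Figure D1:**
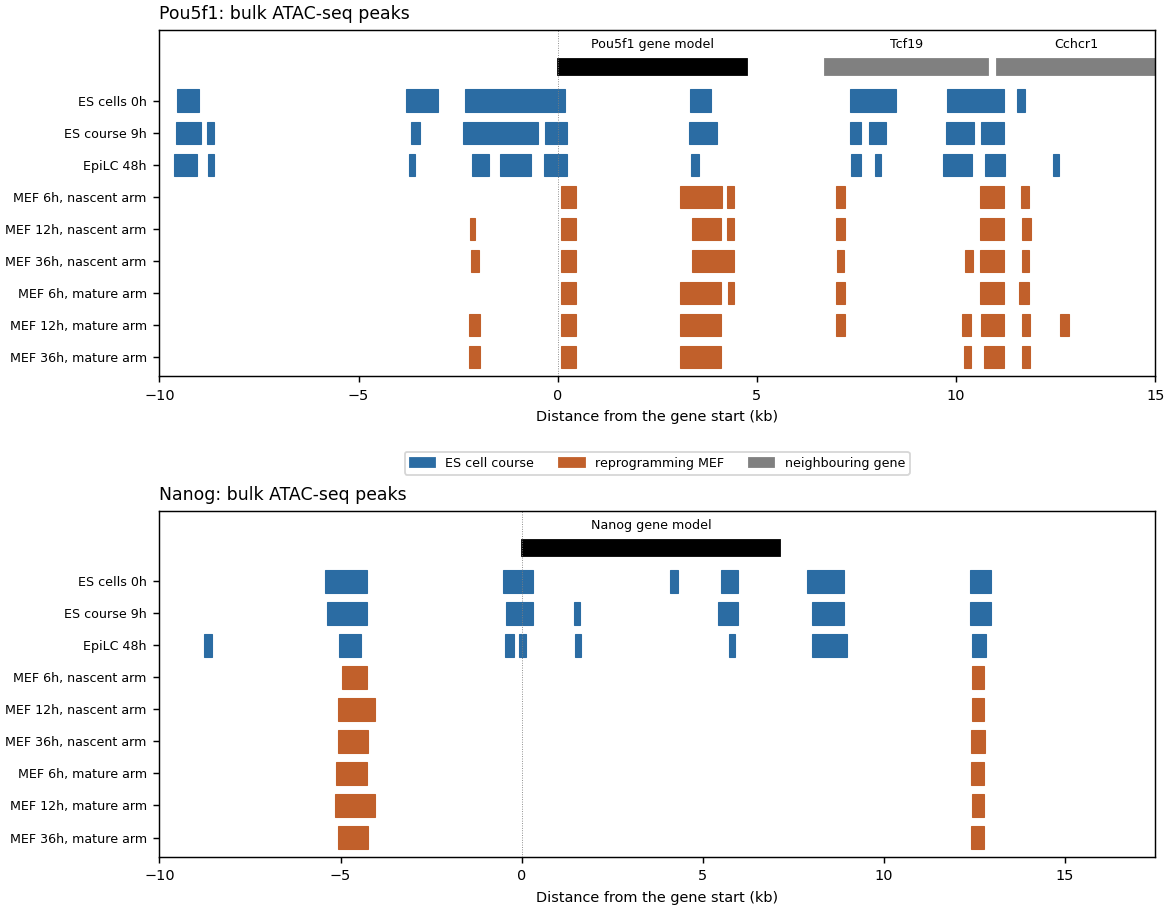
Bulk ATAC-seq peaks at Pou5f1 (top) and Nanog (bottom), by distance from the gene start in kb, with 1 row per pooled list, ES course in blue and reprogramming MEF in orange, and gene models above. Peaks cover the enhancers and promoter before the Pou5f1 start in the ES rows, where MEF rows hold a narrow distal enhancer peak or none, and the MEF peak just past the start has the same edges in every row. At Nanog the upstream enhancer and the far downstream site are the peaks that MEF rows hold.

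At Nanog, a gene that the cassette does not carry, MEF had peaks at the upstream enhancer and a far downstream site but not at the promoter. The upstream enhancer lies about 5 kb before the start, at -5415 to -4266 in 0 h ES cells. In ES bulk lists it scored 5973, 4566 and 1774 at 0, 9 and 48 h, in the top 1.41%, 0.909% and 10.2% of those lists. MEF bulk lists held it with scores of 3494 to 7934 in all 6, already at 6 h (top 7.2% in the nascent arm and 3.94% in the mature arm). The promoter was listed in ES bulk with scores of 1217, 357 and 518 at 0, 9 and 48 h. It had no peak in the 6 MEF bulk lists, the 4 sorted fractions or the 6 lists of the aphidicolin experiment.

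Of the downstream Nanog sites, the near site (about 8 to 9 kb past the start) had a peak in ES lists only, with scores of 777 at 0 h, 746 at 9 h and 2618 at 48 h. At 48 h it was the highest-scoring peak of the Nanog window, ahead of the upstream enhancer, which led at 0 and 9 h. The far site, about 13 kb past the start, had a peak in all 9 bulk lists, with scores of 1612, 1691 and 839 in the ES course and 406 to 1355 in MEF. A site near the end of the gene model was listed in the 3 ES bulk lists (197, 219 and 81) and in no MEF list. ES bulk lists thus held 6, 6 and 8 Nanog peaks, and each MEF bulk list held 2.

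At Sox2, ES cells had a long series of downstream peaks, of which MEF shared a part. ES bulk lists held 39, 45 and 34 peaks in the window at 0, 9 and 48 h, and MEF bulk lists 13, 16 and 9 (nascent arm) and 17, 16 and 10 (mature arm) at 6, 12 and 36 h. The promoter and gene body formed 1 peak in ES bulk (scores 3316, 2977 and 1532). In MEF at 6 h it was 1 peak in each arm too, reaching from the promoter over the gene body block. At 12 and 36 h MEF lists held it as 2 peaks, at the promoter and over the gene body block (418 to 1368 bp past the start at 12 h). The gene body block can share reads with the cassette, while the promoter lies before the gene model. MEF promoter peaks scored 1828 (nascent arm) and 1099 (mature arm) at 12 h, and 879 and 917 at 36 h.

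In the distal control region, chr3:34752461-34767461, ES bulk held 6, 7 and 3 peaks at 0, 9 and 48 h. Site 4, about 111 kb past the start, was the highest of these at all 3 times, with scores of 4759 (top 3.09% of the list), 2979 (3.95%) and 694 (29.4%). Site 1, about 107 kb past the start, scored 2614 and 1360 at 0 and 9 h and had no peak at 48 h. Site 3 scored 1027, 916 and 582. Sites 1, 3 and 4 had no peak in any MEF list of any kind. Of the numbered sites, site 2, about 108 kb past the start, was the exception. It scored 1588, 1277 and 563 in ES bulk. It was present in all 6 MEF bulk lists (294 to 464) and all 4 sorted fractions (92, 165, 126 and 55 in Q1 to Q4). Far downstream site A, described below, also lies in the control region and had a peak in 5 of 6 MEF bulk lists.

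Several other ES sites had no MEF peak. The inner downstream site, about 18 kb past the start (3063, 2504 and 1468 at 0, 9 and 48 h), the 85 kb site (3704, 2184 and 408) and far downstream site C, about 137 kb past the start (2037, 1499 and 1125) had no peak in any MEF list. The near downstream enhancer, about 4 kb past the start, had a peak in the 3 ES bulk lists and in 2 of 6 MEF bulk lists. The 14 kb site and far downstream sites B and D, about 124 and 146 kb past the start, had a peak in all 9 bulk lists.

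MEF lists held a strong site of their own. The 94 kb downstream site had no peak in any ES course list and a peak in all 6 MEF bulk lists, with scores of 4644 at 6 h, 4301 at 12 h and 430 at 36 h (nascent arm) and 6583, 3894 and 1063 (mature arm). Within its list it stood in the top 3.54% at 6 h, 8.95% at 12 h and 52.8% at 36 h in the nascent arm, and in the top 2.9%, 8.44% and 29.5% in the mature arm. ES cells had the neighbouring 95 kb site (5212, 2796 and 713 at 0, 9 and 48 h), which 3 of 6 MEF bulk lists also held. Far downstream site A, near 105 kb and inside the control region, had a peak in 5 of 6 MEF bulk lists (scores up to 1411). None of the 3 ES bulk lists held it, and 1 mature ES list did.

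**Figure D2:**
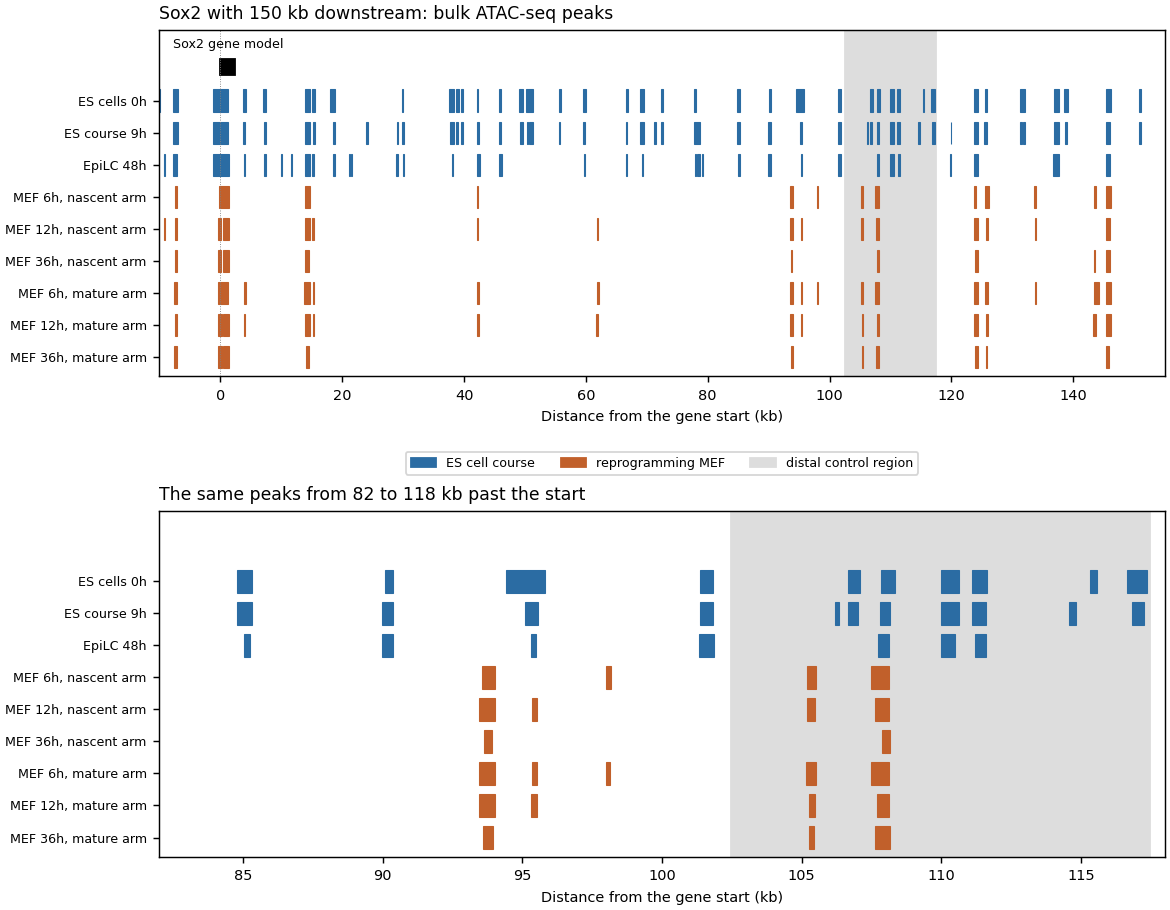
Bulk ATAC-seq peaks from 10 kb before Sox2 to 150 kb past its end (top) and around the distal control region (grey band, enlarged in the bottom panel), by distance from the gene start in kb, with 1 row per pooled list. ES rows (blue) hold 3 to 7 peaks in the grey band and MEF rows (orange) 1 to 2. The MEF peak at 94 kb has no counterpart in ES rows.

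Whole-window counts were read against the same comparison over all peaks. Of 0 h ES bulk peaks, 3 of 7 at Pou5f1, 30 of 39 at Sox2 and 4 of 6 at Nanog overlapped no 6 h MEF bulk peak (nascent arm), where 66.6% of all 0 h peaks did not. Of 6 h MEF peaks, 2 of 6 at Pou5f1, 5 of 13 at Sox2 and 0 of 2 at Nanog overlapped no 0 h ES peak, against 70.5% overall. The 0 h Pou5f1 peak met the MEF first block only in its last bases (70 to 176 bp past the start), which is enough to count as an overlap. Within the first 9 h of the ES course, 1 of 7, 1 of 39 and 1 of 6 of the 0 h peaks at Pou5f1, Sox2 and Nanog had no 9 h peak (21.4% of all), and 1 of 10, 6 of 45 and 1 of 6 of the 9 h peaks had no 0 h peak (19.6%). Between 0 and 48 h, 1 of 7, 13 of 39 and 1 of 6 of the 0 h peaks had no 48 h peak, against 38.9% of all peaks. The reverse count, 48 h peaks with no 0 h peak, was 2 of 12, 9 of 34 and 2 of 8, against 34.9%. From 6 to 36 h in MEF, 0 of 6, 5 of 13 and 0 of 2 peaks of the nascent arm had no 36 h peak (38.5% of all), and 2 of 6, 8 of 17 and 0 of 2 of the mature arm (38.9%). Peaks at 36 h with none at 6 h were 2 of 7 at Pou5f1 in the nascent arm (20.6% of all) and 2 of 6 in the mature arm (12.6%), the distal enhancer among them in each arm, and none at Sox2 or Nanog.

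In nascent chromatin, the ES enhancers of all 3 genes were among the few peaks found, and the promoters of Pou5f1 and Nanog were not. The Pou5f1 distal enhancer had a nascent peak at 0, 9 and 48 h (scores 157, 134 and 154), and the proximal enhancer had one at 48 h only (score 82). The Nanog upstream enhancer had one at each time (222, 247 and 199). The Sox2 promoter and gene body had one at each time (181 and 158 as 1 peak at 0 and 9 h, 151 and 182 as 2 peaks at 48 h). Nascent peaks in the Sox2 control region numbered 3 at 0 h (sites 1, 3 and 4), 2 at 9 h (sites 3 and 4) and 0 at 48 h. In mature ES chromatin they numbered 4, 4 and 2.

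Over the 3 windows, 11 of 52, 12 of 61 and 13 of 54 ES bulk peaks had a nascent peak at 0, 9 and 48 h, where 12.2%, 11.7% and 17.4% of all bulk peaks did. Pou5f1 gave 4 of 7, 2 of 10 and 4 of 12, Sox2 gave 6 of 39, 8 of 45 and 6 of 34, and Nanog gave 1 of 6, 2 of 6 and 3 of 8. A mature peak was found for 35 of 52, 41 of 61 and 31 of 54, against 42.4%, 59.3% and 47.8% of all peaks. In MEF, 1 of 21, 3 of 25 and 3 of 18 bulk peaks had a nascent peak at 6, 12 and 36 h, against 1.72%, 10.3% and 10.7%, and 4 of 21, 5 of 25 and 6 of 18 had a mature peak, against 7.92%, 32.1% and 27.4%. These shares rest on 18 to 61 bulk peaks at 3 loci in lists with no replicate check, and they were not tested against the share of all peaks.

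The single nascent peak at 6 h in MEF, in a list of 3222, was the Sox2 94 kb site (score 74), and it was again among the mature peaks at 6 h (score 163). At 12 and 36 h the nascent peaks were the Sox2 gene body block (259 and 145), the Nanog upstream enhancer (298 and 178) and the Tcf19-Cchcr1 start site (196 and 110). The 94 kb site had no nascent or mature peak at 12 or 36 h. The first Pou5f1 block had a mature peak at 6, 12 and 36 h (62, 500 and 285) and no nascent peak at any of them.

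**Figure D3:**
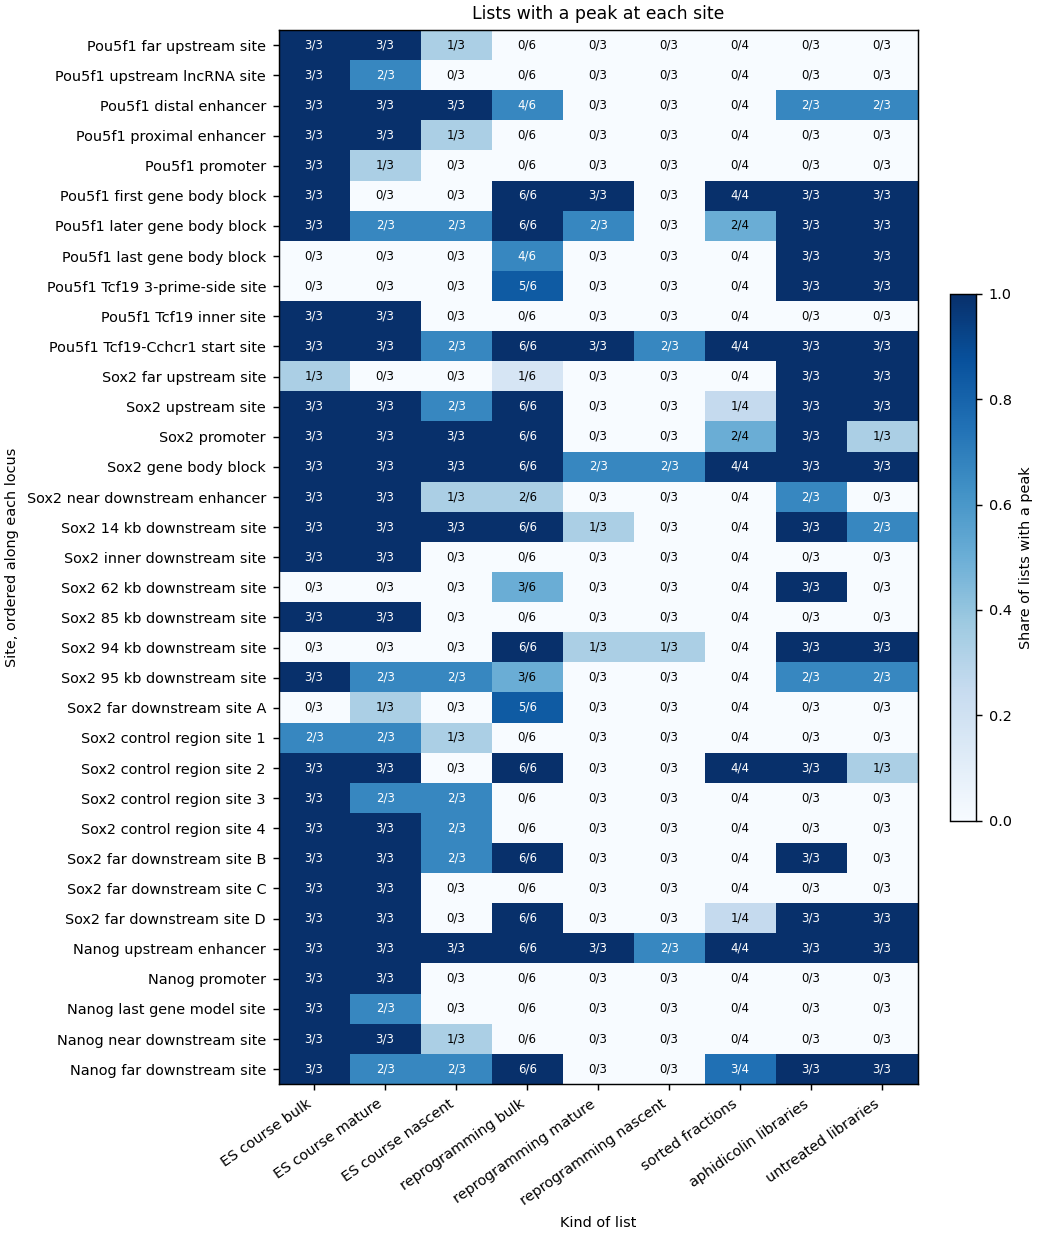
Number of lists with a peak at each of 35 named sites (rows, in order along each locus), by kind of list (columns), with darker blue for a larger share of the lists. The ES bulk column counts the first Pou5f1 block because promoter peaks run past the start by 176 to 240 bp. Control region sites 1, 3 and 4 of Sox2, the Nanog promoter and the Pou5f1 promoter and proximal enhancer have 0 in every MEF column.

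The sorted fractions at 60 h held few peaks at the 3 genes, in lists of 57762 to 73518 peaks. Q1 to Q4 held 3, 3, 2 and 2 peaks at Pou5f1, 6, 3, 2 and 2 at Sox2, and 2, 2, 2 and 1 at Nanog. The Sox2 promoter was listed in Q1 (199) and Q2 (201) and not in Q3 or Q4, covering 122 and 158 of the 250 bases printed above. The Sox2 gene body block (181, 312, 189 and 70) and the first Pou5f1 block (442, 420, 188 and 102) were in all 4 fractions. The Nanog upstream enhancer was too (2425, 3567, 2521 and 756), while the promoters of Nanog and Pou5f1 and both Pou5f1 enhancers had no peak. The Sox2 94 kb site had none in any of the 4 fractions. Each fraction has 1 list, Q4 has the shortest list and the lowest median score (170), and the fractions were not tested against each other.

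The aphidicolin experiment is the only part with counts per library, 3 with aphidicolin and 3 untreated, all 14 h after induction. Over 139000 regions the libraries held 55158844, 78677381 and 64844155 counts with aphidicolin and 49440524, 47339515 and 41183769 untreated. Regions were tested with edgeR's quasi-likelihood test, two-sided, with Benjamini-Hochberg adjustment over all regions. Within each group the libraries go by the letters a, b and c, values are per-million counts (CPM), and fold changes are aphidicolin over untreated on the log2 scale, with their standard error (SE). The table holds 17 regions at the 3 loci, and all 17 passed the filter on low counts. Of these, 12 had a peak in all 6 lists and 5, all at Sox2, entered only because all 3 aphidicolin lists held a peak there. Those 5 are the promoter, the 14 and 62 kb sites, far downstream site B and control region site 2. Of the 12 regions with a peak in all 6 lists 6 fell, 1 rose and 5 did not pass the test, where 17.9% of all 138996 tested regions fell and 18.0% rose, regions that entered through 1 group included. Fitted alone, the 100668 regions with a peak in all 6 lists gave 15902 falls and 16523 rises, with the same 6 falls and 1 rise at the 3 loci. The 5 regions that entered through aphidicolin lists were chosen through that group, so a higher value there is a description. The split over all tested regions depends on the scaling: with library totals alone 11101 regions fell and 42149 rose, against 24874 and 25061 with TMM, and the median fold change moved up by 0.16, while the same 6 regions at the 3 loci fell. The median fold change over the 12 was -0.29. The aphidicolin and untreated libraries did not overlap in 8 of the 12 regions, 7 lower and 1 higher, against 22.9% and 23.8% of all regions.

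The regions that fell most were those over the gene bodies of Pou5f1 and Sox2. The Sox2 gene body block (chr3:34650423-34651360) had 41.0, 39.3 and 38.4 CPM with aphidicolin and 69.0, 69.9 and 63.6 CPM untreated. The groups lie far apart, and it fell by 41.4%, or by 0.77 on the log2 scale (SE 0.08, edgeR adjusted p 2.2e-05). The first Pou5f1 block (chr17:35506102-35506481) had 21.5, 18.9 and 17.7 CPM with aphidicolin and 32.3, 31.2 and 31.0 CPM untreated, again without overlap, and fell by 38.6%, or by 0.70 on the log2 scale (SE 0.09, edgeR adjusted p 6.1e-05). The later block fell by 0.53 (SE 0.08, edgeR adjusted p 0.00024), with 18.4, 16.0 and 18.0 CPM with aphidicolin and 25.7, 25.4 and 24.5 CPM untreated. The last block, weaker at 2.39 to 2.84 CPM with aphidicolin and 3.36 to 4.88 CPM untreated, fell by 0.68 (SE 0.14, edgeR adjusted p 0.0018).

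These blocks lie inside the gene models of 2 cassette genes, so a lower count there cannot be told apart from a change at the cassette. The other 2 cassette genes were read in the same fit. All 3 regions at the Klf4 gene model fell (by 0.66, 0.48 and 0.27 on the log2 scale), as did 2 of 3 at Myc (by 0.39 and 0.65), the third having a log2 fold change of -0.10. At Col1a1, the locus that holds the cassette, 3 of 5 regions fell, with log2 fold changes from -0.57 to 0.01. Of all 138996 tested regions 17.9% fell. Strong regions were lower on the whole, as the next paragraph describes, and these regions were not set against others of like strength. The part of the cassette in these values was not tested.

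At Nanog, outside the cassette genes, the upstream enhancer (chr6:122702498-122703253) also fell. It had 26.7, 23.8 and 24.2 CPM with aphidicolin and 30.4, 32.4 and 35.5 CPM untreated, without overlap, a fall of 0.39 (SE 0.08, edgeR adjusted p 0.002). The Tcf19-Cchcr1 start site, 3′ of Pou5f1, had 27.1, 22.9 and 23.8 CPM with aphidicolin and 35.0, 34.3 and 29.5 CPM untreated, and fell by 0.42 (SE 0.09, edgeR adjusted p 0.0019). Strong regions were lower on the whole. With all regions ranked by mean log CPM and cut into 10 classes of equal size, the median fold change was -0.32 in the strongest class and 0.43 in the weakest. The strongest class holds the Sox2 gene body block, the first and later Pou5f1 blocks, the Nanog enhancer and the Tcf19-Cchcr1 start site. With offsets that remove this trend with strength, the falls at the Nanog enhancer (-0.09, edgeR adjusted p 0.41) and the Tcf19-Cchcr1 start site (-0.12, edgeR adjusted p 0.21) no longer passed the test, while the 4 gene body blocks still did. Over all 138996 tested regions, 14882 fell and 15644 rose under those offsets. The falls of the 4 blocks under those offsets were 0.36 at the Sox2 block and 0.43, 0.28 and 0.76 at the first, later and last Pou5f1 blocks. They were smaller than in the reported fit at all but the last. The last Pou5f1 block is of middle strength, in a class whose median was 0.08. The far downstream Nanog site did not pass the test (log2 fold change -0.03, SE 0.15, edgeR adjusted p 0.89), nor did the site near the 3′ end of Tcf19 (-0.18, SE 0.10, edgeR adjusted p 0.17), although its groups did not overlap.

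The Sox2 94 kb site (chr3:34743589-34743971), which had a peak in all 6 MEF bulk lists and in no ES course list, rose with aphidicolin. It had 7.96, 7.97 and 7.82 CPM with aphidicolin and 4.96, 5.23 and 5.45 CPM untreated, from 457, 667 and 539 counts with aphidicolin and 226, 235 and 218 counts untreated. The groups do not overlap, and the rise was 0.60 on the log2 scale (SE 0.10, edgeR adjusted p 0.00025), in a strength class whose median was -0.06. All 6 lists of the experiment had a peak there. The 62 kb site is in the table only through its peak in the 3 aphidicolin lists, with none in the untreated lists, so its difference is a description. It had 1.19 to 1.52 CPM with aphidicolin and 0.713 to 1.25 CPM untreated, ranges that overlap, with a log2 fold change of 0.61 (SE 0.22), in the weakest class, whose median was 0.43.

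The Sox2 promoter had 6.20, 4.91 and 5.07 CPM with aphidicolin and 7.30, 5.48 and 4.42 CPM untreated, with overlap, and did not pass the test (log2 fold change -0.10, SE 0.15, edgeR adjusted p 0.62). Its peak was in 3 of 3 aphidicolin lists and 1 of 3 untreated lists, covering 221, 230 and 217 bases of the printed window with aphidicolin and 135, 0 and 0 untreated. The peak in all 3 aphidicolin lists is what brought this region into the table, and those lists were also longer, so this gap is a description. Control region site 2 had a log2 fold change of 0.35 (SE 0.21, edgeR adjusted p 0.2), and its peak was in 3 of 3 aphidicolin lists and 1 of 3 untreated lists. Without untreated library b the edgeR adjusted p at that site was 0.033. Control region site 2 entered the table only through its peak in the 3 aphidicolin lists, so a higher value there is a description. Far downstream site D (0.31, SE 0.17, edgeR adjusted p 0.17, but 0.039 with library totals alone) and the remaining sites, those upstream, the 14 kb site and far downstream site B (-0.06 to 0.21), did not pass either.

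**Figure D4:**
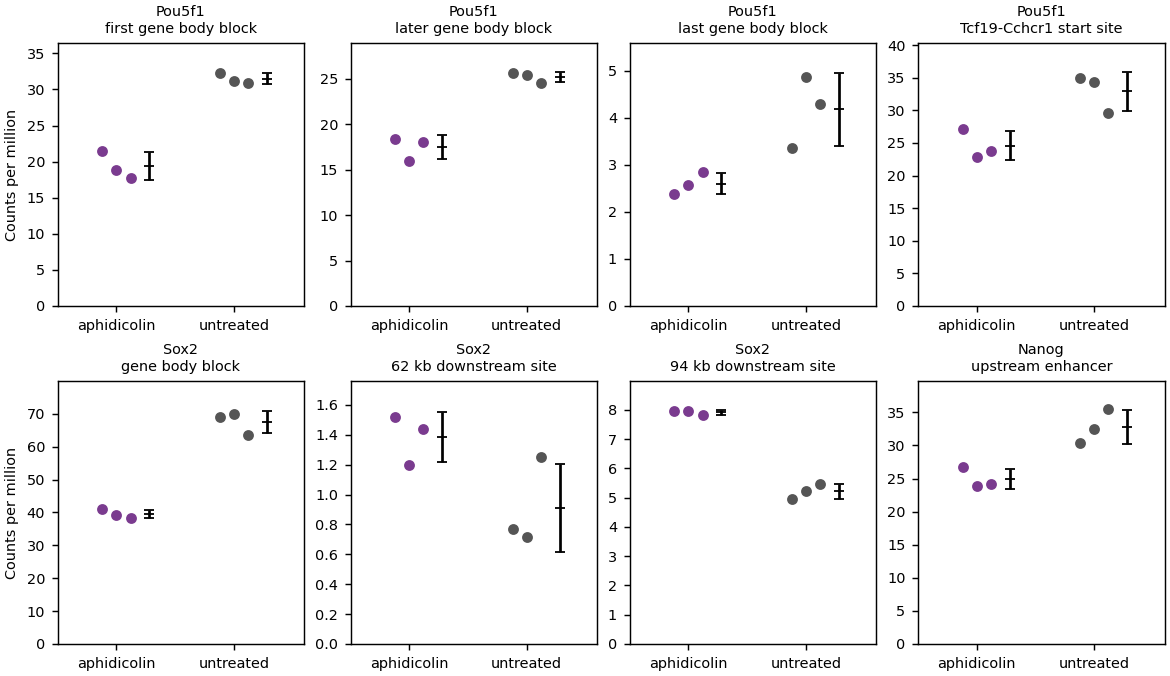
CPM in each library at the 8 regions with an adjusted p under 0.05, aphidicolin (purple) left of untreated (grey), with the mean and SD of 3 libraries beside the points. The groups are apart at every region but the Sox2 62 kb site, which entered the table through its aphidicolin peaks alone. At the Sox2 94 kb site aphidicolin libraries hold 7.82 to 7.97 CPM and untreated libraries 4.96 to 5.45 CPM.

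**Figure D5:**
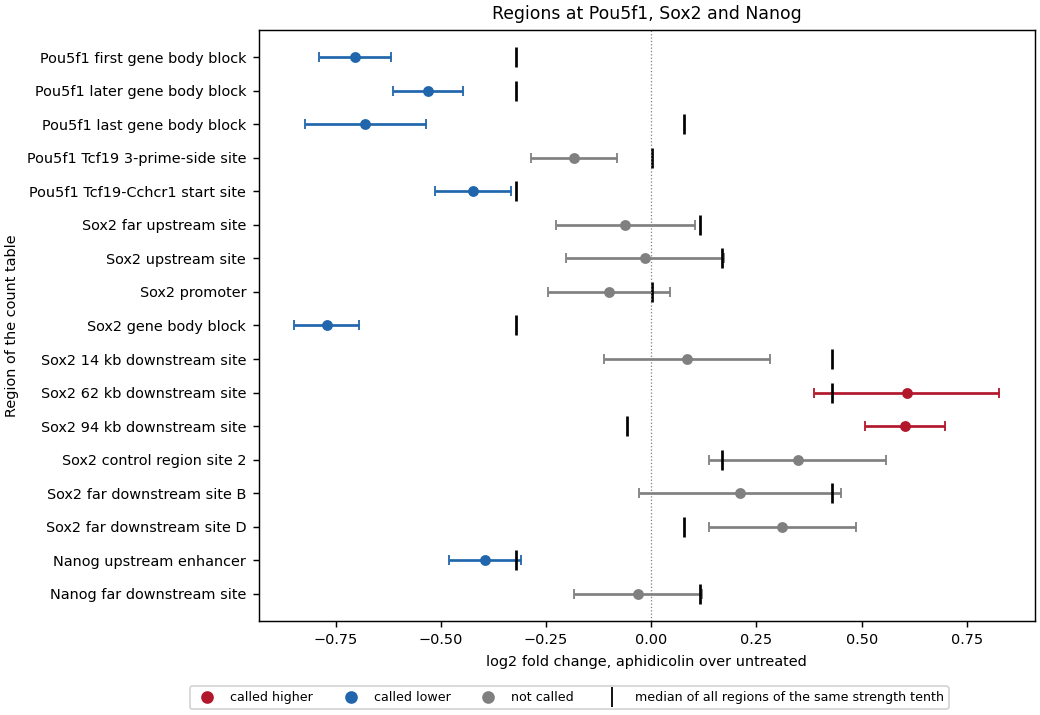
Log2 fold change, aphidicolin over untreated, with 1 SE on either side, at the 17 regions of the 3 loci, and as a black bar the median of all regions of the same strength class. The 4 gene body blocks lie left of their bars, the Nanog enhancer and Tcf19-Cchcr1 start site close to theirs, and the Sox2 94 kb site right of its bar.

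Counts were also summed over each gene model and 10 kb on either side, for 36443 genes, of which 25.1% rose and 25.9% fell. The Pou5f1 sum (5 regions) was 49.6, 44.8 and 46.3 CPM with aphidicolin and 60.6, 62.3 and 60.4 CPM untreated, and fell by 0.38 (SE 0.04, edgeR adjusted p 6.9e-05). The same 5 regions make up the Tcf19 sum. The Sox2 sum (4 regions) was 34.8, 33.1 and 32.2 CPM with aphidicolin and 47.9, 48.6 and 46.2 CPM untreated, and fell by 0.51 (SE 0.04, edgeR adjusted p 2.5e-05). Without the regions that touch the gene model, the Sox2 sum had a log2 fold change of 0.08 (edgeR adjusted p 0.61), so its fall rests on the gene body block. The Pou5f1 sum still fell without them, by 0.24 (edgeR adjusted p 0.007), on the 2 regions at Tcf19. The Nanog sum (2 regions, neither in the gene model) was 19.2, 17.8 and 18.3 CPM with aphidicolin and 19.5, 21.2 and 23.9 CPM untreated, and fell by 0.22 (SE 0.07, edgeR adjusted p 0.022). That call was lost in 4 of the 6 fits that left out 1 library, those without untreated b or c or aphidicolin b or c (edgeR adjusted p 0.064, 0.067, 0.093 and 0.074).

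Among 25 other genes of the pluripotency network 23 could be tested, and 7 rose, 7 fell and 9 did not pass the test. Their median fold change was -0.01, against 0.01 over all genes, so as a list they stood near the middle of all sums. Dppa2 and Dppa4, both counted as higher, share their single region. The 4 with the smallest p were Klf4, Klf2, Tet2 and Tbx3. Klf4, a naive pluripotency factor that is also in the cassette, had 71.4, 71.0 and 71.9 CPM with aphidicolin and 92.1, 89.8 and 85.1 CPM untreated, and fell by 0.32 (edgeR adjusted p 6.7e-05). Klf2, its relative in naive ES cells, had 43.3, 40.4 and 40.3 CPM with aphidicolin and 52.6, 52.4 and 50.8 CPM untreated, and fell by 0.33 (edgeR adjusted p 0.00012). Tbx3, a T-box factor of naive cells, had 55.7, 51.8 and 53.4 CPM with aphidicolin and 65.0, 62.7 and 60.1 CPM untreated, and fell by 0.22 (edgeR adjusted p 0.0011). Tet2, which oxidises methylated cytosine, had 57.8, 59.2 and 60.7 CPM with aphidicolin and 48.7, 50.8 and 52.0 CPM untreated, and rose by 0.23 (edgeR adjusted p 0.00059). None of the 4 had overlapping groups, but they were picked by their p in this same fit, so that is a description. The share of all locus sums without overlap was not computed.

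The partner genes with a usable start numbered 17, and all 17 had a peak within 1 kb of it in each ES bulk list. MEF bulk lists had 10, 14 and 13 at 6, 12 and 36 h in the nascent arm and 13, 13 and 15 in the mature arm, where 58.3%, 60.5% and 56.5% of all gene starts had one in the nascent arm and 60.0%, 59.2% and 56.8% in the mature arm. In the experiment with aphidicolin the count was 13 in each aphidicolin list (57.5%, 58.7% and 58.1% of all starts) and 12, 12 and 10 in the untreated lists (55.8%, 55.3% and 54.5%).

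At the level of peak calls, Sox2 had the widest gap between the groups, in the longest window (162467 bp, against 24746 at Pou5f1 and 27145 at Nanog). Within 10 kb of the gene, Sox2 had 4, 5 and 5 peaks with aphidicolin and 4, 3 and 3 untreated, with overlap. Aphidicolin lists held 11, 13 and 12 peaks in the Sox2 window and untreated lists 7, 8 and 6, a difference of 5, without overlap (two-sided exact permutation test, p = 0.1, the smallest that 3 against 3 can give). Among the 50000 highest-scoring peaks of each list the Sox2 window held 3, 2 and 2 with aphidicolin and 1, 1 and 2 untreated, a difference of 1, with overlap (exact permutation p = 0.3). The aphidicolin lists were also longer (148292, 163947 and 158327 peaks, against 129546, 126958 and 116939 untreated). Per 10000 listed peaks the Sox2 window held 0.742, 0.793 and 0.758 with aphidicolin and 0.54, 0.63 and 0.513 untreated. Pou5f1 had 6, 7 and 7 peaks with aphidicolin and 6, 6 and 6 untreated, and Nanog 2 in every list (exact permutation p = 0.4 and 1).

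The genes whose bulk peak scores followed each member most closely over the 9 bulk lists, among 42519 genes, are given as a description, with no test, since lists of 1 system share their cells and the arms their time points. The measure was Pearson's r of the log2 share of each list's summed score that lay within 10 kb of the gene model. For Pou5f1 they were Clptm1l (r 0.996), Chmp2a (0.995), the overlapping Tcf19 (0.994), Ssu2 (0.994) and Ergic3 (0.992). For Sox2 they were Gm12827 (0.989), LOC115490475 (0.988), Dynlt1a (0.988), Gm31547 (0.987) and Gm41842 (0.987), and for Nanog Platr11 (0.997), Gm23817 (0.996), Armcx1 (0.995), Gm23470 (0.995) and Ankrd53 (0.994).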

How the data were processed

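Per the submitters' processing notes, the build was mm10 and the tools named, with no role, were MACS2 2.2.0, Bowtie2 2.2.5, bedtools 2.26.0, bcl2fastq 2.19.1, SAMtools 1.4.1 and cutadapt 2.2.0. Parameters and any shift for the transposase cut are not given in the sources used here. In all, the authors deposited 25 peak lists of 1 per group and 6 of 1 per sample (the aphidicolin experiment), whose score column is the peak caller's. No minimum beyond theirs was applied. Going by peak names, reprogramming lists came from merged replicates, and a sorted fraction's scores come from a single library. A second deposited file holds unnormalized counts in 139000 regions for the 6 aphidicolin and untreated libraries. Each region had a peak in all 3 aphidicolin lists, in all 3 untreated lists, or in both. The table's column numbers are not tied to the labels' replicates, so libraries are called a, b and c. Elimination and the list's name assigned the nascent arm's bulk lists.

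Gene models and promoter sequences came from RefSeq tables of GRCm38.p6, whose chromosome coordinates are those of mm10. Peaks were assigned to a locus or to another list's peak by an overlap of at least 1 bp, and 35 sites were drawn by hand after the peaks had been seen. A site counts as present where a peak overlaps it by at least 100 bp. Counts were tested with edgeR 4.0.16 (TMM, filterByExpr defaults, glmQLFit and glmQLFTest, two-sided) in R 4.3.3, with Benjamini-Hochberg adjustment over all regions or all locus sums and a threshold of 0.05. The test was checked on simulated counts. Alternatives were other scalings, no filter, a block by column number, DESeq2 1.42.0, leaving out each library, other windows and other peak thresholds. No 2 libraries were alike within sampling noise (lowest chi-square per degree of freedom 1.88). The labels do not say whether replicates were separate cultures, so p-values cover the spread among these samples alone, which may be technical.

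The members, the partner genes and the marker lists were chosen with earlier results of these data known. The partner genes named are the 4 with the smallest p in the locus sums, and the genes of like pattern are the 5 with the highest r per member. Dppa2 and Dppa4 were named after their values were seen, because they share a region.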

Additional observations from a re-analysis of the deposited data

How the results depend on the processing

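The 6 falls at the 3 loci were called in every fit that left out 1 library, and under every other alternative but the offsets that follow region strength, which left 4. Regions called higher numbered 2, the 94 and 62 kb Sox2 sites, of which the 62 kb site entered the table through aphidicolin lists alone. Regions called higher numbered 1 under those offsets, under DESeq2 and among regions with a peak in all 6 lists, and 1 to 2 when 1 library was left out. Each fit that left out 1 library called the 94 kb site. The 62 kb site was called only without untreated c, and control region site 2 only without untreated b. Control region site 2 also entered the table through aphidicolin lists alone. With library totals alone 3 regions were called higher, and far downstream site D passed (0.47, edgeR adjusted p 0.039). Of the values of single regions under all alternatives, 185 of 216 kept their direction and side of the threshold, 9 lost the call, 3 gained it and 19, all not called, changed sign.

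With library totals alone the Sox2 far upstream site, upstream site and promoter and the Nanog far downstream site turned to 0.095, 0.142, 0.060 and 0.128, and the Nanog sum was -0.15 (edgeR adjusted p 0.1). With strength-dependent offsets the Sox2 14 kb site and far downstream site B turned to -0.31 and -0.24, the Nanog sum was -0.21 (edgeR adjusted p 0.055), calls numbered 30526 regions (49935 in the fit reported) and 12206 locus sums (18581), and 4 partner genes were higher. Among regions with a peak in all 6 lists the Sox2 far upstream and upstream sites and the Nanog far downstream site turned to 0.012, 0.059 and 0.043, with 32425 regions called. Leaving out 1 library, these 3 sites ranged from -0.20 to 0.043, -0.19 to 0.13 and -0.11 to 0.084, the Sox2 promoter from -0.25 to 0.11 and the Nanog sum from -0.29 to -0.14. Regions called then ranged from 30467 (without aphidicolin b) to 57937 (without untreated c). The Sox2 sum turned to 0.078 without its gene model regions. The cause of these changes was not tested.

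Among the 50000 highest-scoring peaks of each list the difference at Sox2 was 1 peak (5 reported), and at Pou5f1 it was 0. With bulk lists brought to the same length (137173 peaks) the mature arm at 12 h held 17 peaks, against 26. Requiring an overlap that covers at least 50% of the bulk peak gave 6 nascent peaks at 0 h (11 reported), 7 at 48 h (13) and 0 at 6 h (1), and 2 mature peaks at 6 h (4). The numbers in the count table's column names are not tied to the labels' replicates, and same-numbered libraries deviated together with r of 0.263, 0.0125 and 0.154, aphidicolin b going best with untreated c (0.135), so the reported fit has no block. A fit with those numbers as a replicate block, chosen after seeing the data, called 60460 regions and 22184 locus sums, the same 6 falls, and 3 rises, site D being added (0.32, edgeR adjusted p 0.046). List length limits detection, the nascent list at 6 h holding 3222 peaks and the mature list 14281.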
